A study of Mus musculus with 30 samples.

Results

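The receptors of the activin, BMP and TGF-beta families were followed in skeletal muscle and kidney of mice that carry a kidney tubule defect and received a soluble activin receptor trap. The 9 genes were Acvr2b, Acvr2a, Acvr1b, Acvr1, Tgfbr1, Tgfbr2, Tgfbr3, Bmpr1a and Bmpr2, out of 17781 genes that had at least 1 probe set annotated to a single symbol. Every probe set of the array assigned to exactly one of these symbols was taken, which gave 23 of 31552 such probe sets. Bmpr1a had 6 probe sets, Tgfbr1 and Bmpr2 had 3 each, Acvr1b had 1, and the other 5 genes had 2 each.

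Ligands of this superfamily bind a pair of type II and a pair of type I receptor kinases. The type II kinase phosphorylates the type I kinase, which in turn phosphorylates SMAD proteins that enter the nucleus. Activins bind Acvr2a or Acvr2b and signal through Acvr1b, TGF-beta binds Tgfbr2 and signals through Tgfbr1, and BMPs use Bmpr2 or the activin type II receptors together with Bmpr1a or Acvr1. In muscle, signalling through the activin type II receptors is known to restrain muscle mass, and in kidney, TGF-beta receptor signalling is known for its part in fibrosis.

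Affymetrix Mouse Genome 430 2.0 arrays were hybridised with RNA from snap-frozen muscle and kidney of 15 mice aged 6 weeks, 30 arrays in all. Mice were wild type (WT) or Kif3aΔTub, called mutants here, whose genotype is given as Kif3aKSPCre: Kif3a, a motor subunit needed to build cilia, is deleted by a Cre that the kidney-specific cadherin promoter drives in tubule epithelium, so other kidney cells and muscle are not the cells in which this promoter is known to act. Treated mice received the trap sActRIIB-Fc, the soluble ligand-binding part of the activin type IIB receptor, in 2 weekly intraperitoneal injections of 10 mg/kg until week 6, and control mice received PBS. Each tissue had 3 WT mice with PBS, 4 mutants with PBS, 4 WT mice with the trap and 4 mutants with the trap, and the animal numbers tie both tissues to the same mice. The labels name neither the muscle nor the sex of the mice.

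The values are deposited log2 intensities, so a difference of 1 is a doubling, and levels of different probe sets are not comparable with each other. Changes were called where limma's p, adjusted over all 31552 probe sets, fell under 0.05. For counts, a gene was represented by its brightest probe set, which was the same one in both tissues for all 9 receptor genes. Array medians ran from 5.94 to 6.06 in muscle and from 6.09 to 6.24 in kidney. The fast fibre markers averaged 13.95 ± 0.06 (SD, n = 3) in untreated WT muscle and 4.53 ± 0.04 (SD, n = 3) in untreated WT kidney, and proximal tubule markers averaged 12.14 ± 0.02 (SD, n = 3) in the same kidneys, so both tissues carried the markers of their label. Kif3a itself was lower in mutant than in WT kidneys under PBS, by -0.50 ± 0.15 (SE, adjusted p = 0.012), and gave -0.02 ± 0.14 under the trap (adjusted p = 0.91) and -0.15 ± 0.18 in muscle under PBS (adjusted p = 0.66). The position of its probe set relative to the deleted part is not known from the labels.

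The promoters of 4 receptor genes are shown because these genes carry the contrasts described below: Tgfbr2 and Tgfbr1 had the larger kidney changes, Acvr1b the larger muscle change, and Acvr1 moved in opposite directions in the tissues. Each is the 250 bases before the RefSeq transcript start (GRCm38.p6), read 5′ to 3′ on the strand of the gene. Capitals mark matches on either strand of any of the motifs searched. The first was CAGAC, which holds the core that SMAD proteins bind. The next was GGCGCC, an element also known to be bound by SMAD proteins. Then came GGGCGG, the sequence known to be bound by Sp1 and related factors. The last was TATAAA, the element of the same name near some start sites. Matches can overlap, both within a motif and between motifs rich in G and C.
Tgfbr2 (chr9:116175364-116175613, minus strand): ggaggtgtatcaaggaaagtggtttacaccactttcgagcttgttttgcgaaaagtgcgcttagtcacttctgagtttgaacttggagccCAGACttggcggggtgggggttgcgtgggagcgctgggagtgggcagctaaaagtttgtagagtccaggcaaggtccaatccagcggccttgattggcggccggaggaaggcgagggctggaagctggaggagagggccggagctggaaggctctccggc
Tgfbr1 (chr4:47352972-47353221, plus strand): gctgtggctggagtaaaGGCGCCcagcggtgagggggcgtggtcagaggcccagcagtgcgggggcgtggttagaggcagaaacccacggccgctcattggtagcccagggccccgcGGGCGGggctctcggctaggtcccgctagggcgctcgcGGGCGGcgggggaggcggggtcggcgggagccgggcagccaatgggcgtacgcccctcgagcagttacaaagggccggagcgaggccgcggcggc
Acvr1b (chr15:101173822-101174071, plus strand): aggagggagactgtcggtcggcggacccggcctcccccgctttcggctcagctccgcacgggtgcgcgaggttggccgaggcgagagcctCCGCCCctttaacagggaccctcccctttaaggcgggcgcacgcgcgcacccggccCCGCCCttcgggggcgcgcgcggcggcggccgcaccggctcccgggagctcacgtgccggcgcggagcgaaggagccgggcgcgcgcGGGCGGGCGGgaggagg
Acvr1 (chr2:58566829-58567078, minus strand): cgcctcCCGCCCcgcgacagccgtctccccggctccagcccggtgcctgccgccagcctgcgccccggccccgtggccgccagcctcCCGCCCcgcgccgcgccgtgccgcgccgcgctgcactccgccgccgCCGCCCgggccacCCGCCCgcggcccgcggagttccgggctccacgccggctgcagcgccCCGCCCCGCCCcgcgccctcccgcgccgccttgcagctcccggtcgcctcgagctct

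Each of these windows ends 1 base before the start of its annotated gene. The Tgfbr2 window held 0 matches to GGGCGG and 1 to CAGAC, and 58.4% of its bases were G or C, at the 67.8 percentile of all promoter windows. The Tgfbr1 window held 2 matches to GGGCGG and 1 to GGCGCC, the Acvr1b window held 4 matches to GGGCGG, and the Acvr1 window held 6, with a G and C content of 85.6%. Among all 32851 promoter windows of the table, 32.7% held GGGCGG, 42.2% CAGAC, 9.59% GGCGCC and 12.4% TATAAA. The last motif was found in 0 of the receptor windows. Of the 9 genes, 8 had an entry, Tgfbr1 with a second one at chr4:47385966-47386215 inside the gene, and Tgfbr3 is named only. A match describes the letters of a window and is neither a binding site nor a cause of a change.

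In untreated WT mice, 6 of the 9 receptor genes were lower in kidney than in muscle and 2 were higher, beside 35.8% and 28.3% of all genes, so that 64.1% of all genes were called in either direction. The type II receptors Acvr2b, Acvr2a and Bmpr2 were lower in kidney by -1.05 ± 0.17 (SE), -0.89 ± 0.15 and -0.77 ± 0.14 (adjusted p = 4.2e-06, 6.5e-06 and 2.4e-05). The type I receptors Bmpr1a and Acvr1 were lower by -0.96 ± 0.12 and -0.81 ± 0.15 (adjusted p = 1.2e-07 and 4.8e-05). Smaller differences were called for the co-receptor Tgfbr3 (-0.39 ± 0.16, adjusted p = 0.035), Tgfbr1 (0.43 ± 0.17, adjusted p = 0.034) and Tgfbr2 (0.37 ± 0.15, adjusted p = 0.029). Each of these 3 calls was lost in most of the fits that left out a single array of untreated WT mice. With the mean of all probe sets the difference was 0.12 for Tgfbr1 (adjusted p = 0.50) and 0.016 for Tgfbr2 (adjusted p = 0.91), and neither was called. The dimmer Tgfbr2 probe set averaged 6.00 in kidney and 6.34 in muscle of untreated WT mice, the opposite direction. Acvr1b gave -0.23 ± 0.16 (adjusted p = 0.21). A median shift of 0.12 between the tissues' arrays is contained in these differences, and after centring on it the calls for Tgfbr1 (0.31, adjusted p = 0.12) and Tgfbr2 (0.26, adjusted p = 0.11) were lost.

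**Figure D1:**
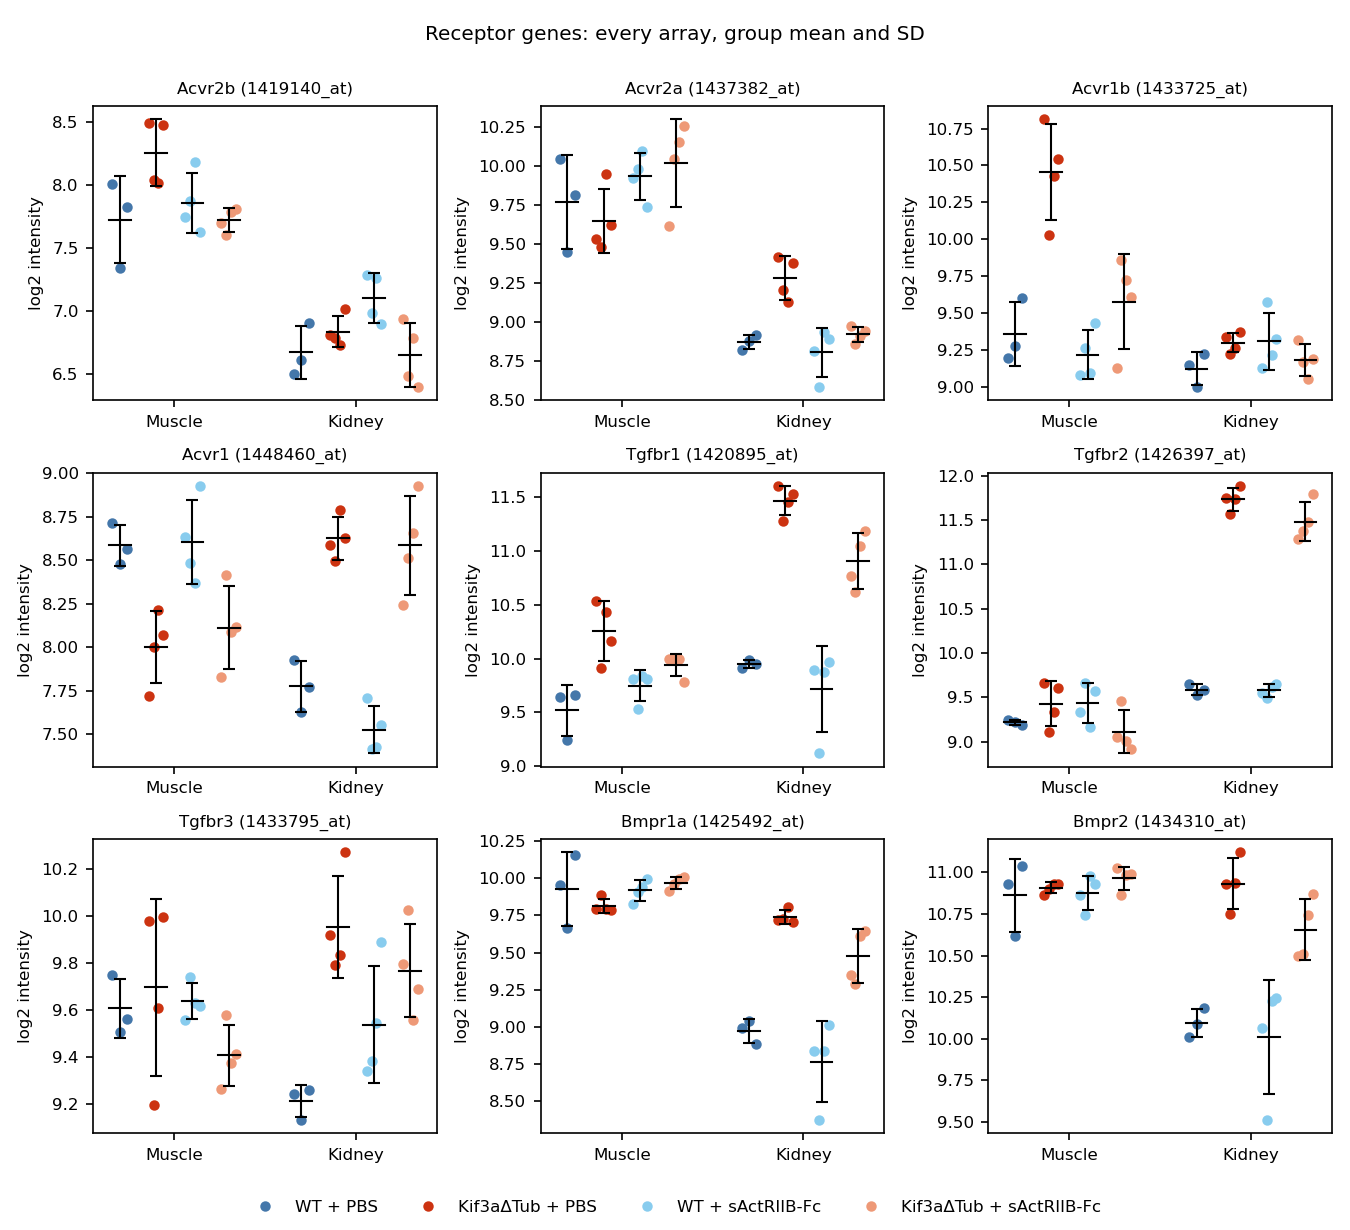
Log2 intensity of the brightest probe set of each receptor gene on every array, with group mean and SD (3 or 4 mice a group), muscle on the left and kidney on the right of each panel, each panel with its own axis. In kidney, the mutants of both treatments sit above both WT groups for Tgfbr2, from 11.29 to 11.89 against 9.49 to 9.65, and in muscle the untreated mutants stand above the other 3 groups for Acvr1b.

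In kidney under PBS, the mutants had higher levels of 7 of the 9 receptor genes and lower levels of 0, beside 24.7% of all genes higher and 50.9% called in either direction. The median change of the 9 genes was 0.77, and that of all genes was -0.08. The 2 receptors that were not called were Acvr2b, a type II activin receptor, and Acvr1b, a type I one, while Acvr2a, the other type II activin receptor, was among those called. Over all probe sets, 13 of the 23 were higher and 0 lower, beside 23.8% of all probe sets higher. At the brightest probe sets, mutant and WT kidneys did not overlap for 8 of the 9 receptors under PBS, beside 57.1% of all probe sets. The same held for 5 of the 9 under the trap, beside 35.4%. Under the trap, 5 receptor genes were higher and 1 lower in mutants, beside 21.9% and 23.6% of all genes, 45.4% in all. The treated mutants compared with untreated WT mice had 6 receptor genes higher and 0 lower, beside 21.9% of genes higher and 46.7% in all. The 18S control signal of these groups did not overlap, at 12.00 to 12.70 in treated mutant kidneys and 12.97 to 13.06 in untreated WT kidneys, and with it as a covariate 1 of the 9 was called, Tgfbr2 (1.62, limma, adjusted p = 9.4e-06), beside 19.7% of all probe sets. These comparisons share groups, so their counts are not independent. The array medians of treated mutant kidneys were higher by 0.13 than those of treated WT kidneys and by 0.11 than those of untreated WT kidneys, and after centring on the medians the called receptors kept their directions. In that centred fit Acvr1b was also called lower in the mutants under the trap, with a change of -0.25 ± 0.099 (limma, adjusted p = 0.043).

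In muscle under PBS, the mutants had 3 receptor genes higher and 1 lower, beside 6.73% and 8.82% of all genes, 15.5% in all. The higher ones were Acvr1b, Tgfbr1 and Acvr2b, and the lower one was Acvr1. Mutant and WT muscles did not overlap for 4 of the 9 under PBS, beside 22.8% of all probe sets. Treated mutants and untreated WT mice did not overlap for 2 of the 9, beside 11.2%. Under the trap, 0 of 9 differed between mutants and WT (1.28% of all genes were called), and 0 of 9 differed between treated mutants and untreated WT mice (0.86% of all genes).

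With the trap, few receptor changes were called at the adjusted threshold, where the shares of all genes called were low too. In muscle of mutants, 1 of 9 was called, Acvr1b, which fell (2.09% of all genes were lower, 6.19% in all), and in muscle of WT mice 0 of 9 (0.0619% of all genes). In kidney, 0 of 9 was called in mutants (2% of all genes) and 0 of 9 in WT mice (1.03% of all genes). Treated and untreated mutants did not overlap for 3 of 9 receptors in muscle (10.9% of all probe sets) and 3 of 9 in kidney (7.39%). All 9 changes in mutant kidneys had a negative sign, from -0.56 to -0.04, with a median of -0.25 beside -0.01 over all genes. The 18S signal of mutant kidneys was lower under the trap without overlap, at 12.00 to 12.70 beside 12.86 to 13.43 under PBS, and with it as a covariate Acvr2b gave 0.015 while the other 8 changes kept a negative sign. Of the kidney markers, 1 of 12 for proximal tubule (median change 0.99) and 2 of 9 for distal tubule (0.15) rose in the same comparison, beside 0.917% of all genes, and 2 of 9 for collecting duct (-0.35) fell, beside 1.09%. The part of these markers in the receptor values was not tested. The test of whether the trap effect differed between mutants and WT mice called 0 of 9 receptors in muscle (0.141% of all genes) and 0 of 9 in kidney (1.31% of all genes). At an unadjusted p under 0.05 the trap counts were 5 of 9 in mutant muscle (21.3% of all genes), 0 in WT muscle (11.4%), 4 in mutant kidney (14.8%) and 2 in WT kidney (13%). The genotype-by-trap counts at that threshold were 4 in muscle (14.3%) and 3 in kidney (13.4%). The muscle counts were 2 for genotype under the trap (12.5%) and 2 for treated mutants against untreated WT mice (10.9%).

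**Figure D2:**
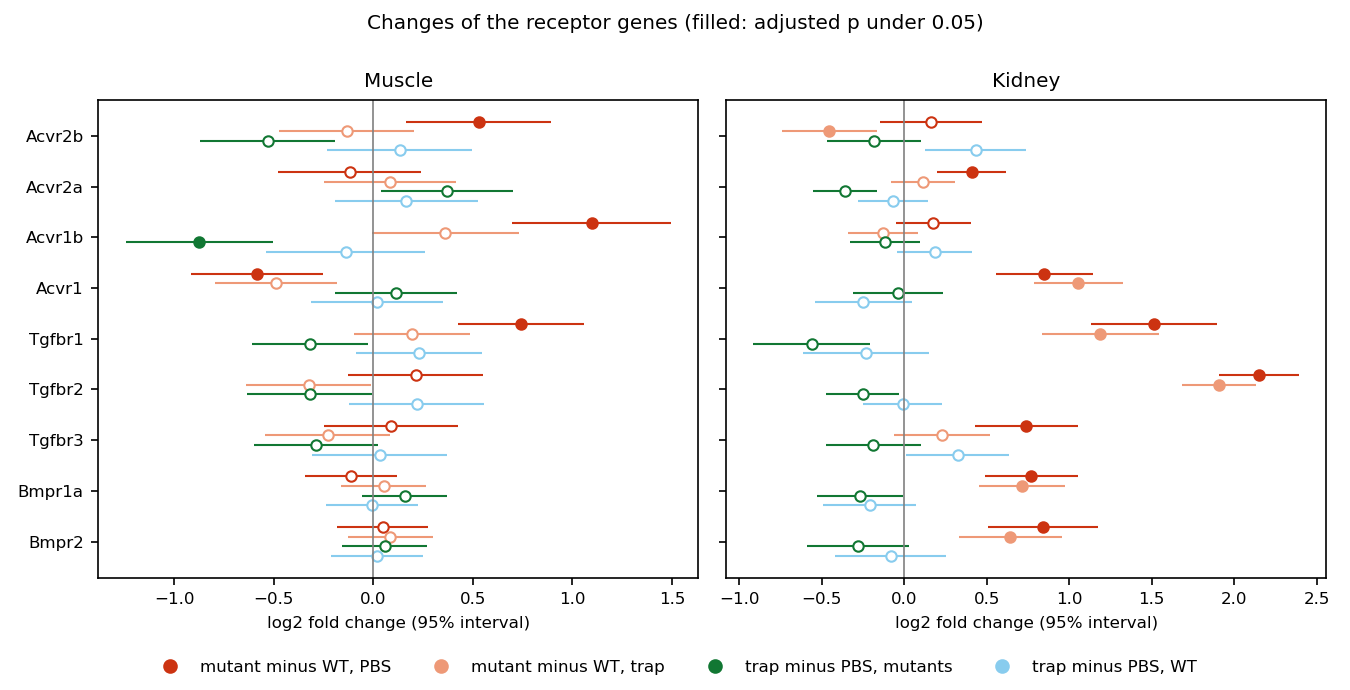
Log2 fold change of each receptor gene with its 95% interval for 4 comparisons in muscle and kidney, filled where the adjusted p was under 0.05. Most filled points are the genotype comparisons in kidney, 7 under PBS and 6 under the trap, and the muscle panel holds 4 filled points under PBS and 1 for the trap in mutants.

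Tgfbr2, the type II receptor that binds TGF-beta, had the largest kidney change of the 9. In kidney under PBS its level was 9.65, 9.52 and 9.58 in WT mice. The untreated mutants had 11.76, 11.56, 11.74 and 11.89. Under the trap it was 9.55, 9.49, 9.62 and 9.65 in WT mice and 11.29, 11.38, 11.48 and 11.79 in mutants. The lowest mutant kidney was thus well above the highest WT kidney, with or without the trap, while the groups of one genotype overlapped. The genotype change was 2.15 ± 0.11 (SE, 4.44-fold, adjusted p = 1.8e-09) under PBS and 1.91 ± 0.10 (3.75-fold, adjusted p = 6.4e-09) under the trap. The change with the trap in mutants was -0.25 ± 0.10 (95% interval -0.48 to -0.03, adjusted p = 0.28) and in WT mice -0.01 ± 0.11 (adjusted p = 0.98). The second probe set, which was dimmer, changed by 0.81 ± 0.15 under PBS (adjusted p = 4.4e-04) and 0.74 ± 0.14 under the trap (adjusted p = 6.0e-04), in the same direction with a smaller size.

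In muscle, Tgfbr2 stayed between 8.91 and 9.67 on all arrays. The WT mice under PBS had 9.24, 9.22 and 9.19, and the mutants had 9.66, 9.11, 9.33 and 9.61. These groups overlapped, and the change was 0.21 ± 0.16 (95% interval -0.13 to 0.55, adjusted p = 0.43). Between treated and untreated mutants the change was -0.32 ± 0.15 (adjusted p = 0.22). The genotype effect of Tgfbr2 was larger in kidney than in muscle by 1.94 ± 0.19 (adjusted p = 6.2e-09), tested in a joint fit of both tissues.

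Tgfbr1, the type I kinase that Tgfbr2 activates, was called in both tissues. Its kidney level under PBS was 9.91, 9.98 and 9.95 in WT mice and 11.60, 11.28, 11.45 and 11.53 in mutants. Under the trap it was 9.89, 9.12, 9.87 and 9.97 in WT mice and 10.76, 10.62, 11.05 and 11.18 in mutants. No mutant kidney overlapped a WT kidney, and all 4 treated mutants were below the 4 untreated mutants. The genotype change was 1.52 ± 0.18 under PBS (2.86-fold, adjusted p = 4.9e-06) and 1.19 ± 0.17 under the trap (2.28-fold, adjusted p = 3.7e-05). The change with the trap in mutants was -0.56 ± 0.17 (95% interval -0.91 to -0.21, adjusted p = 0.11), which was not called, except with array weights (-0.55, adjusted p = 0.037). A second probe set, 1420893_a_at, changed by 0.70 ± 0.13 between genotypes under PBS (adjusted p = 4.9e-04), and another, 1420894_at, by 0.18 ± 0.23 (adjusted p = 0.54). The latter averaged 4.38 in kidney, below 4.74, the median level there of fast fibre markers, which kidney should lack.

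In muscle, Tgfbr1 was 9.64, 9.25 and 9.67 in WT mice and 10.53, 9.91, 10.43 and 10.16 in mutants under PBS. The groups did not overlap, and the change was 0.74 ± 0.15 (1.67-fold, adjusted p = 0.0036), a call kept under all 18 alternatives tried. Probe set 1420894_at gave 0.72 ± 0.20 (adjusted p = 0.021) and 1420893_a_at 0.16 ± 0.18 (adjusted p = 0.60), both near the level of proximal tubule markers in muscle (median 4.85), at 5.02 and 4.81. Treated mutants had 9.99, 9.99, 9.99 and 9.78, above every untreated WT mouse and within or just below the range of the untreated mutants, and the change with the trap was -0.32 ± 0.14 (adjusted p = 0.19). That change was called without mutant PBS replicate 2 (-0.43, adjusted p = 0.044). Under the trap the genotype difference was 0.19 ± 0.14 (95% interval -0.10 to 0.49, adjusted p = 0.66). The genotype effect in kidney exceeded that in muscle by 0.78 ± 0.23 (adjusted p = 0.0088).

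Tgfbr3, or betaglycan, is a co-receptor that presents TGF-beta to Tgfbr2 and also binds inhibins. In kidney under PBS it was 9.25, 9.13 and 9.26 in WT mice and 9.92, 9.79, 9.84 and 10.27 in mutants. The groups did not overlap, and the change was 0.74 ± 0.15 (1.67-fold, adjusted p = 6.3e-04). The second probe set gave -0.18 ± 0.19 (adjusted p = 0.43) at a mean of 4.51, below the level of markers that kidney should lack, and with the mean of both probe sets the change was 0.28 (adjusted p = 0.11) and no longer called. Under the trap the genotype difference was 0.23 ± 0.14 (adjusted p = 0.19), with WT levels of 9.34, 9.38, 9.54 and 9.89 and mutant levels of 9.80, 10.02, 9.56 and 9.69. That difference was called without treated WT replicate 4 (0.34, adjusted p = 0.042). In muscle the change with genotype under PBS was 0.09 ± 0.16 (adjusted p = 0.77), with mutant levels spread from 9.20 to 10.00.

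Acvr2b, the type IIB activin receptor from whose extracellular part the trap is built, was measured as mRNA, and the injected trap is a protein. In kidney under PBS its level was 6.50, 6.61 and 6.90 in WT mice and 6.81, 6.79, 6.73 and 7.01 in mutants. These groups overlapped, and the change was 0.16 ± 0.14 (95% interval -0.15 to 0.47, adjusted p = 0.37). Under the trap it was 7.28, 6.98, 7.26 and 6.89 in WT mice and 6.93, 6.49, 6.79 and 6.40 in mutants. The mutants were lower by -0.45 ± 0.13 (1.37-fold, adjusted p = 0.013), although 1 mutant lay above the lowest WT mouse, and the second probe set gave -0.50 ± 0.12 (adjusted p = 0.0045). Trap and PBS differed by 0.43 ± 0.14 in WT mice (adjusted p = 0.17) and -0.18 ± 0.13 in mutants (adjusted p = 0.62), and the test of that difference gave -0.62 ± 0.20 (adjusted p = 0.15). The trap change in WT mice was called with array weights (0.47, adjusted p = 0.049). After adding the 18S control signal to the fit, the genotype difference under the trap was -0.37 (adjusted p = 0.080), and with the actin 3′ to 5′ difference it was -0.32 (adjusted p = 0.10), so that the call was lost in both. The 18S signal ran from 12.43 to 12.80 in treated WT kidneys and from 12.00 to 12.70 in treated mutant kidneys, and its part in the result was not tested beyond these fits.

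In muscle, Acvr2b was 8.01, 7.34 and 7.82 in WT mice and 8.49, 8.04, 8.01 and 8.47 in mutants under PBS. The lowest mutant lay just above the highest WT mouse, and the change was 0.53 ± 0.17 (1.44-fold, adjusted p = 0.0485), close to the threshold. The second probe set gave 0.41 ± 0.15 (adjusted p = 0.072), and the call of the brighter one was lost under 6 of 11 other settings and on leaving out 4 of 7 mice, namely WT replicate 2 (0.34, adjusted p = 0.26), WT replicate 3 (0.58, adjusted p = 0.076), mutant replicate 1 (0.45, adjusted p = 0.12) and mutant replicate 4 (0.46, adjusted p = 0.12). Treated mutants had 7.70, 7.60, 7.78 and 7.81, all below the untreated mutants. The change with the trap in mutants was -0.53 ± 0.16 (1.45-fold lower, adjusted p = 0.060), which was not called. That change was called with only probe sets above the median level (adjusted p = 0.040) and without mutant PBS replicate 2 (-0.60, adjusted p = 0.031). The treated mutants differed from untreated WT mice by -0.0027 ± 0.17 (95% interval -0.37 to 0.36).

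Acvr2a, the other activin type II receptor, was 8.82, 8.88 and 8.92 in WT kidneys and 9.42, 9.20, 9.13 and 9.38 in mutant kidneys under PBS. All mutants were above all WT mice, and the change was 0.41 ± 0.10 (1.33-fold, adjusted p = 0.0031), with 0.32 ± 0.13 (adjusted p = 0.061) at the second probe set. Treated mutants had 8.97, 8.86, 8.91 and 8.94, below every untreated mutant and overlapping both WT groups. The change with the trap in mutants was -0.36 ± 0.09 (1.28-fold lower, adjusted p = 0.063), which was not called, and it was called with 1 probe set per gene (adjusted p = 0.0496), after quantile normalization (adjusted p = 0.043), with array weights (adjusted p = 0.038) and without mutant PBS replicate 2 (adjusted p = 0.0496). In muscle the change with the trap in mutants was 0.37 ± 0.16 (adjusted p = 0.18). The joint fit gave a lower trap effect in kidney than in muscle for Acvr2a, by -0.73 ± 0.18 (adjusted p = 0.019), with -0.65 at the second probe set, a call lost with the 18S covariate (-0.92, adjusted p = 0.21). That difference joins 2 single-tissue changes of opposite sign, neither of which was called.

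Acvr1b, the type I kinase that transmits activin signals, had 1 probe set and the largest muscle change of the 9. In muscle under PBS it was 9.19, 9.27 and 9.60 in WT mice and 10.81, 10.03, 10.43 and 10.54 in mutants. Treated WT mice had 9.08, 9.26, 9.09 and 9.43, and treated mutants had 9.12, 9.86, 9.72 and 9.61. The untreated mutants stood above all other muscle arrays, and the other 3 groups overlapped. The change with genotype under PBS was 1.10 ± 0.19 (2.14-fold, adjusted p = 0.0012), and the change with the trap in mutants was -0.88 ± 0.17 (1.83-fold lower, adjusted p = 0.011). Under the trap the genotype difference was 0.36 ± 0.17 (95% interval -0.01 to 0.73, adjusted p = 0.43), in WT mice the trap change was -0.14 ± 0.19 (adjusted p = 0.82), and the test of whether the trap effect differed by genotype gave -0.74 ± 0.26 (adjusted p = 0.23).

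The 18S control signal of muscle was 12.50 to 13.13 in untreated mutants, 13.11 to 13.28 in untreated WT mice and 13.05 to 13.40 in treated mutants. With this signal as a covariate the genotype change of Acvr1b was 0.84 (adjusted p = 0.070) and the trap change in mutants -0.61 (adjusted p = 0.41), and neither was called. The trap call was lost too with the actin 3′ to 5′ difference (-0.78, adjusted p = 0.076) and with only the groups compared in the fit (-0.88, adjusted p = 0.056). In kidney Acvr1b ran from 9.00 to 9.57 over all 15 arrays. Its genotype change there was 0.18 ± 0.11 under PBS (95% interval -0.05 to 0.40, adjusted p = 0.19) and -0.13 ± 0.10 under the trap (adjusted p = 0.32), the latter called after median centring (-0.25, adjusted p = 0.043). The genotype effect was lower in kidney than in muscle by -0.92 ± 0.21 (adjusted p = 0.0012), and the trap effect in mutants was higher in kidney by 0.76 ± 0.20 (adjusted p = 0.028). The latter call was lost with the 18S covariate (0.38, adjusted p = 0.76) and on leaving out 4 of 16 arrays, namely treated mutant muscle replicate 1 (0.60, adjusted p = 0.065), untreated mutant muscle replicates 1 (0.64, adjusted p = 0.077) and 4 (0.73, adjusted p = 0.051), and treated mutant kidney replicate 1 (0.70, adjusted p = 0.060).

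Acvr1, a type I kinase used mainly by BMPs, moved in opposite directions in the tissues. In kidney under PBS it was 7.92, 7.63 and 7.77 in WT mice and 8.59, 8.49, 8.79 and 8.63 in mutants. Under the trap it was 7.71, 7.42, 7.43 and 7.55 in WT mice and 8.24, 8.51, 8.65 and 8.93 in mutants. No mutant kidney overlapped a WT kidney. The genotype change was 0.85 ± 0.14 under PBS (1.80-fold, adjusted p = 1.1e-04) and 1.06 ± 0.13 under the trap (2.08-fold, adjusted p = 9.3e-06), with 0.28 ± 0.11 (adjusted p = 0.043) and 0.40 ± 0.10 (adjusted p = 0.0043) at the dimmer second probe set.

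In muscle under PBS, Acvr1 was 8.71, 8.48 and 8.56 in WT mice and 7.72, 8.0, 8.21 and 8.07 in mutants. All mutants were below all WT mice, and the change was -0.58 ± 0.16 (1.5-fold lower, adjusted p = 0.019). The second probe set gave -0.15 ± 0.12 (adjusted p = 0.48), and the call was lost with the mean of both probe sets (-0.37, adjusted p = 0.053), with the 18S covariate (-0.62, adjusted p = 0.13), with the actin covariate (-0.47, adjusted p = 0.12) and without mutant replicate 1 (-0.49, adjusted p = 0.055) or WT replicate 1 (-0.52, adjusted p = 0.076). Treated mutants had 7.83, 8.41, 8.09 and 8.11, and treated WT mice 8.63, 8.49, 8.37 and 8.92. These groups overlapped, and the difference was -0.49 ± 0.14 (adjusted p = 0.13), which was not called, except with array weights (-0.52, adjusted p = 0.033). The change with the trap in mutants was 0.11 ± 0.14 (adjusted p = 0.73). The genotype effect was higher in kidney than in muscle by 1.43 ± 0.20 (adjusted p = 2.1e-06).

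Bmpr1a, a BMP type I kinase, was 8.99, 9.04 and 8.88 in WT kidneys and 9.72, 9.73, 9.81 and 9.70 in mutant kidneys under PBS. The groups were clearly apart, and the change was 0.77 ± 0.13 (1.71-fold, adjusted p = 1.8e-04) under PBS and 0.71 ± 0.12 (adjusted p = 2.3e-04) under the trap. Treated mutants, at 9.35, 9.29, 9.61 and 9.65, lay below every untreated mutant, with a trap change of -0.27 ± 0.12 (adjusted p = 0.35). Of the other 5 probe sets, 1425494_s_at (0.46 ± 0.11, adjusted p = 0.0031) and 1425493_at (0.37 ± 0.13, adjusted p = 0.022) were higher under PBS. Those not called were 1425491_at (0.24 ± 0.14), 1451729_at (0.11 ± 0.10) and 1445413_at (-0.25 ± 0.11). The last was at or below the level of markers that kidney should lack on all 15 kidney arrays.

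In muscle the brightest Bmpr1a probe set ran from 9.67 to 10.16, and its genotype change under PBS was -0.11 ± 0.11 (95% interval -0.35 to 0.12, adjusted p = 0.54). Its genotype effect was higher in kidney than in muscle by 0.88 ± 0.16 (adjusted p = 8.3e-05). Among the dimmer probe sets in muscle under PBS, 1451729_at averaged 6.80 in WT mice and 6.39 in mutants. The rest averaged higher in mutants, such as 1425493_at with 8.09 in WT mice and 8.40 in mutants. The dim probe set 1445413_at fell by 0.43 with the trap in mutant muscle (SE 0.11, adjusted p = 0.032), at a mean of 4.29, below the level of proximal tubule markers in muscle on all 15 arrays.

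Bmpr2, the BMP type II receptor, was 10.01, 10.09 and 10.18 in WT kidneys and 10.93, 10.75, 10.93 and 11.12 in mutant kidneys under PBS. No values overlapped, and the change was 0.84 ± 0.16 (1.79-fold, adjusted p = 3.9e-04) under PBS and 0.64 ± 0.15 (1.56-fold, adjusted p = 0.0022) under the trap. A second probe set was higher by 0.56 ± 0.15 (adjusted p = 0.0061) and the dimmest gave -0.08 ± 0.12 (adjusted p = 0.61). In muscle, Bmpr2 ran from 10.62 to 11.04, and its genotype change under PBS was 0.05 ± 0.11 (95% interval -0.18 to 0.28, adjusted p = 0.83). The genotype effect was higher in kidney by 0.79 ± 0.18 (adjusted p = 0.0010).

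**Figure D3:**
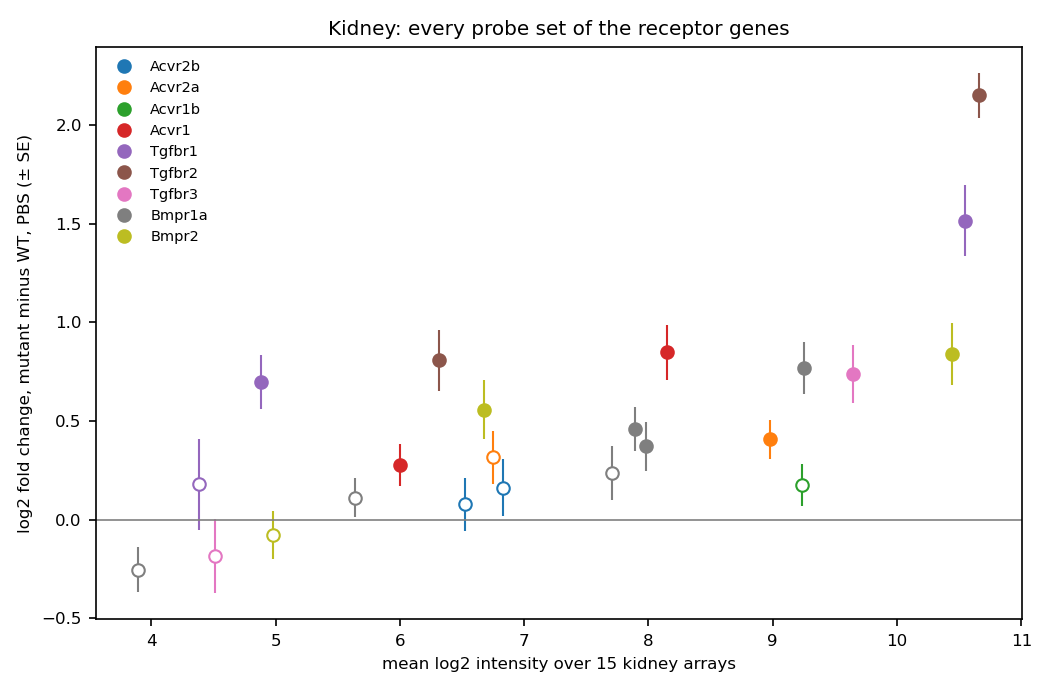
Log2 fold change between mutant and WT kidneys under PBS (± SE) of all 23 receptor probe sets against their mean log2 intensity over the 15 kidney arrays, filled where the adjusted p was under 0.05. The 13 filled points are all above 0, the 3 points below 0 are open and have means under 5, and the second probe sets of Tgfbr2 and Acvr1 lie lower than their brighter partners.

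The genotype effect under PBS differed between kidney and muscle for 8 of the 9 receptors, beside 36.5% of all genes. It was higher in kidney for 7 (19.4% of all genes) and lower for 1 (17.1% of all genes), Acvr1b. Acvr2b gave -0.37 ± 0.22 (95% interval -0.82 to 0.09, adjusted p = 0.22). The calls for Acvr2a (0.53 ± 0.19, adjusted p = 0.034) and Tgfbr3 (0.65 ± 0.21, adjusted p = 0.017) were lost after median centring (0.38, adjusted p = 0.12, and 0.51, adjusted p = 0.057), which removes a shift of 0.14. The Acvr2a call was lost under 13 of 23 alternatives in all, among them the actin covariate (0.52, adjusted p = 0.051) and leaving out 10 of the 14 arrays singly (0.39 to 0.69 over all 14). The Tgfbr3 call was lost without untreated WT muscle replicate 1 too (0.58, adjusted p = 0.051). When every gene was represented by the average of its probe sets, 3 of the 9 receptors were called, beside 37.5% of all genes in that fit. The trap effect in mutants differed between the tissues for 2 of 9, Acvr1b and Acvr2a, beside 4.66% of all genes.

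**Figure D4:**
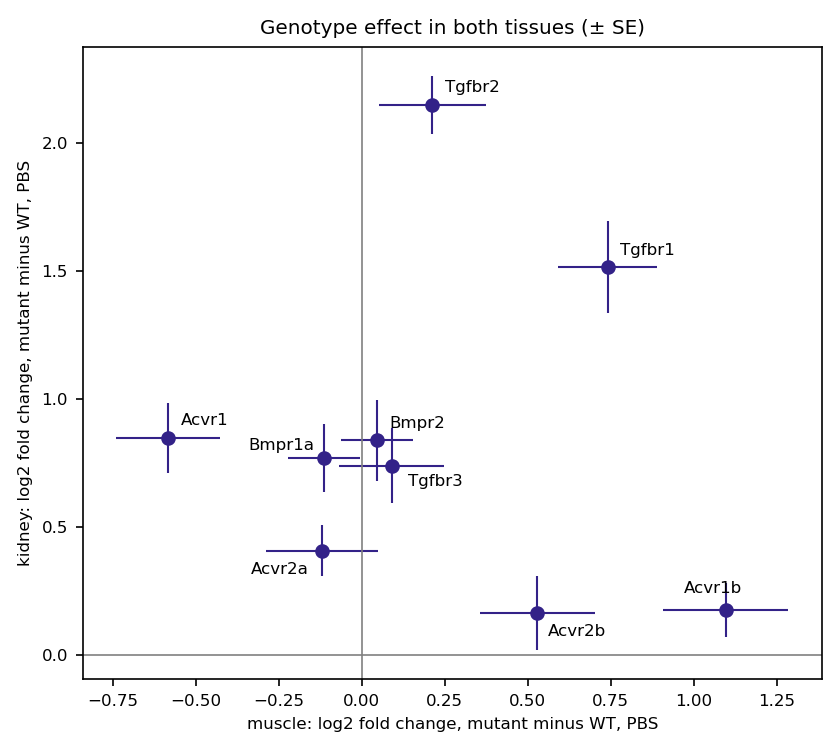
Log2 fold change between mutants and WT mice under PBS in muscle (horizontal) and kidney (vertical) for the 9 receptor genes, each with its SE. Tgfbr2 stands at 2.15 in kidney and 0.21 in muscle, and Acvr1b at 0.18 in kidney and 1.10 in muscle. Acvr1 is the only gene called in both tissues with opposite signs. The brightest probe sets of Acvr2a and Bmpr1a, called higher in kidney, had negative muscle changes (-0.12 and -0.11) that were not called. The sign was not shared by all their dimmer probe sets, which are not drawn. The second of Acvr2a averaged 6.99 in WT and 7.09 in mutant muscle.

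Markers of several cell types were called in the comparison of mutant and WT kidneys under PBS, in which 24.7% of all genes were higher and 26.2% lower. In mutant kidneys, 14 of 14 macrophage markers were higher, and their mean level was 6.10 to 6.41 in WT mice and 9.35 to 9.87 in mutants. Fibroblast markers were higher for 11 of 12, with 7.92 to 8.29 in WT mice and 9.91 to 10.31 in mutants, and collecting duct markers for 9 of 9, with 8.32 to 8.54 and 10.46 to 10.91. Proximal tubule markers were lower for 11 of 12, with 12.12 to 12.16 in WT mice and 8.34 to 10.00 in mutants. Distal tubule markers were lower for 6 of 9, with 10.87 to 11.06 in WT mice and 8.95 to 9.54 in mutants. For endothelial markers 3 of 12 were higher, near the share of all genes. In whole tissue, a changed share of a cell type and a changed RNA level per cell cannot be told apart, and the part of these markers in the receptor changes was not tested.

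In mutant muscle under PBS, where 8.82% of all genes were lower, 8 of 12 fibroblast markers were lower, with a mean level of 10.17 to 10.35 in WT mice and 8.27 to 9.16 in mutants, and so were 5 of 6 tenocyte markers and 4 of 14 macrophage markers. The fast fibre markers ran from 13.90 to 14.02 in WT mice and from 13.91 to 13.98 in mutants, with 1 of 12 lower, near the share of all genes. Satellite cell markers were higher for 2 of 6 and lower for 1, and endothelial markers higher for 1 of 12 and lower for 2, beside 6.73% of all genes higher. With the trap in mutants, 5 of 12 fibroblast markers rose and 1 fell, beside 4.11% and 2.09% of all genes, with a mean level of 9.33 to 9.71. Tenocyte markers rose for 2 of 6 and macrophage markers for 2 of 14 in that comparison. Satellite cell markers rose for 1 of 6 and fell for 2, and endothelial markers fell for 1 of 12. Acvr1b, Acvr1, Tgfbr1 and Acvr2b changed beside these markers, and the part of the markers in those changes was not tested.

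Across the 15 arrays of a tissue, the gene whose level was most like that of a receptor was found by Pearson correlation over brightest probe sets, given here as a description over arrays that differ by genotype and treatment. In muscle, Acvr2b was most like Klf5 (r = 0.905), Son (0.903) and Kdm1a (0.896). Acvr1b was most like Gm11827 (0.956), Acvr1 like Cav1 (0.946), Tgfbr1 like Smg1 (0.943) and Tgfbr2 like Eef1a1 (0.915). Acvr2a was most like Micu3 (0.901), Tgfbr3 like Numa1 (0.888), Bmpr1a like Desi2 (0.884) and Bmpr2 like Galnt1 (0.865). Within the family in muscle, the highest values were 0.788 for Tgfbr2 with Tgfbr3 and 0.779 for Acvr1b with Tgfbr1. The lowest was -0.616 for Acvr1 with Tgfbr1.

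In kidney, where the arrays separate by genotype, Tgfbr2 was most like Ctsc (r = 0.995), Tgfbr1 like Hif1a (0.988), Bmpr2 like Norad (0.988) and Acvr1 like Apaf1 (0.976). Bmpr1a was most like another receptor of the family, Tgfbr1 (0.986). Acvr2a was most like Tox3 (0.951), Tgfbr3 like Bptf (0.930) and Acvr1b like Flywch1 (0.897). Acvr2b, whose genotype change under PBS was not called, was most like Ccdc130 (0.842), Gm15471 (0.805) and 1700120C14Rik (0.795).

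Other genes of the pathway were counted from lists by role. Col1a1, listed as a target, and Dcn, listed as an antagonist, are also among the fibroblast markers counted above. The shares of all genes to set beside the counts in mutant kidneys under PBS are 24.7% higher and 26.2% lower. There, 5 of 13 other receptors and co-receptors were higher and 0 lower. The largest were the BMP type I receptor Bmpr1b (1.53 ± 0.18, adjusted p = 4.9e-06) and the BMP co-receptor Rgmb (0.96 ± 0.17, adjusted p = 2.1e-04). Among SMADs and their regulators, 14 of 21 were higher and 2 lower, led by Pmepa1 (2.14 ± 0.16), which dampens TGF-beta signalling, and Smad1 (1.73 ± 0.11), which carries BMP signals, and the adaptor Dab2 was lower (-1.06 ± 0.12) and so was Zfyve9 (-0.30 ± 0.10), which presents SMADs to the TGF-beta receptor. The ligand list also counts Bmp1, a metalloprotease with a BMP name. Of its genes, 8 of 19 were higher and 5 lower, the latter near the share of all genes. The activin B subunit Inhbb (3.32 ± 0.29) and Tgfb2 (2.20 ± 0.18) were on one side and Bmp7 (-0.52 ± 0.14) and Gdf5 (-0.44 ± 0.11) on the other. Of antagonists and ligand-binding proteins, 10 of 17 were higher, among them Fstl1 (2.70 ± 0.20) and Thbs1 (2.61 ± 0.21), and 1, Chrd, was lower (-0.63 ± 0.12). Of target genes, 6 of 10 were higher and 0 lower, led by Ccn2 (3.48 ± 0.34) and Tgfbi (2.81 ± 0.23).

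With the trap in mutant kidneys, 1 gene of these 5 lists was called, the receptor Bmpr1b, which fell by 0.83 (SE 0.17, adjusted p = 0.020), beside 1.09% of all genes lower. Its trap effect differed between the genotypes by -1.14 ± 0.25 (adjusted p = 0.037), where 1.31% of all genes were called. The lists held 13 other receptors, 21 SMADs and regulators, 19 genes of the ligand list, 17 antagonists and 10 targets. A single call among that many genes is near the share of all genes, and so is 0 of the 9 receptors.

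In mutant muscle under PBS, beside 6.73% of all genes higher and 8.82% lower, 4 of 13 other receptors were lower and 0 higher, led by the pseudoreceptor Bambi (-1.21 ± 0.17, adjusted p = 3.3e-04) and Amhr2 (-1.20 ± 0.15, adjusted p = 1.1e-04), a type II receptor. Among SMADs and regulators 2 of 21 were higher, near the share of all genes, Tgif1 (1.19 ± 0.29) and Smad4 (0.53 ± 0.15), and 0 lower. In the ligand list 4 of 19 genes were lower, led by Gdf10 (-1.46 ± 0.21) and the protease Bmp1 (-0.99 ± 0.14), which is not a ligand. Antagonists were lower for 7 of 17, led by Fstl1 (-1.74 ± 0.25) and Bmper (-1.66 ± 0.16), and 0 were higher in both lists. Of target genes, Id1 was higher (0.97 ± 0.28) and 3 of 10 were lower, among them Col1a1 (-3.93 ± 0.26) and Id2 (-0.85 ± 0.24).

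With the trap in mutant muscle, where 4.11% of all genes rose and 2.09% fell, Amhr2 rose by 0.86 ± 0.14 (adjusted p = 0.0033) and Gdf10 by 0.73 ± 0.19 (adjusted p = 0.037), each the only call of its list. Among antagonists 3 of 17 rose, Fstl1 by 1.20 ± 0.23 and Bmper by 0.92 ± 0.15 among them. Among targets Col1a1, also a fibroblast marker of the lists, rose by 2.45 ± 0.24. Of SMADs and regulators 0 of 21 was called.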

How the data were processed

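RNA of muscle and kidney from 15 mice was hybridised to Affymetrix 430 2.0 arrays (labels' protocols). The authors deposited log2 intensities per probe set; the background correction and normalization that produced them are not given in the sources used here. Probe sets were named through the platform annotation. Of 35088 probe sets, 31552 had 1 symbol, 825 several and 2697 none listed, and 14 were controls.

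Within each tissue, limma (version 3.58.1, R 4.3.3) was fitted to all 15 arrays with 1 mean per group, without a block, and p-values were adjusted by Benjamini-Hochberg over all 31552 probe sets. Tissue comparisons used all 30 arrays, with each mouse as a random effect (correlation 0.0716). The code was tested on simulated data. Arrays carry no read depth, so their number limits the precision. Separate animals by title number are the replicates. The receptors and gene lists were chosen with earlier results of these data known. Named beside the 9 receptors were Kif3a, the 2 largest called changes per direction and list, and the most correlated gene of each receptor (3 for Acvr2b). Alternatives were the probe set choice, filters, quantile and median scaling, array weights, RNA quality covariates, the replicate block, the samples fitted and leaving out each array. Promoter sequences are from RefSeq, GRCm38.p6.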

Additional observations from a re-analysis of the deposited data

Results flagged for a closer look

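Among 138 groups of 4 mice tested, 5 held an array far from the other 3, where chance flags about 1 in 20. Tgfbr1 accounted for 4 of them. Its brightest probe set read 9.54 in muscle of treated WT replicate 2 (others 9.81 to 9.84), 9.78 in muscle of treated mutant replicate 4 (others 9.99 to 9.99) and 9.12 in kidney of treated WT replicate 2 (others 9.87 to 9.97). The dim probe set 1420893_a_at read 4.82 in kidney of treated WT replicate 1 (others 4.45 to 4.46). Bmpr1a read 9.89 in muscle of untreated mutant replicate 2 (others 9.78 to 9.79).

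The effect of genotype under PBS differed between kidney and muscle in the joint fit, kidney minus muscle, at 11 of 23 receptor probe sets, beside 35.1% of all probe sets. The differences were 1.94 for Tgfbr2, 1.43 for Acvr1 and 0.43 for its second probe set, 0.88 for Bmpr1a with 0.52 and -0.50 at 2 dimmer probe sets, 0.79 for Bmpr2, 0.78 for Tgfbr1, 0.65 for Tgfbr3, 0.53 for Acvr2a and -0.92 for Acvr1b. The trap effect in mutants differed at 3 of 23, beside 4.04% of all probe sets, by 0.76 for Acvr1b, -0.73 for Acvr2a and -0.65 for the second probe set of Acvr2a.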

How the results depend on the processing

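The number of receptor genes called was recomputed for 15 comparisons under 297 alternatives. In 273 it stayed within 1.5 times the number given, or at 0 where 0 had been called. With the 18S covariate it went from 4 to 1 in muscle for genotype under PBS, from 1 to 0 for the trap in mutant muscle, from 6 to 1 for treated mutant against untreated WT kidneys and from 2 to 0 for the tissue difference in the trap effect. With the actin covariate it went to 2 for genotype in muscle under PBS, to 0 for the trap in mutant muscle and from 8 to 4 for kidney against muscle. Array weights gave 1 for genotype in muscle under the trap, 2 for the trap in mutant kidney and 1 for the trap in WT kidney, where 0 had been called. For the trap in mutant muscle, probe sets above the median gave 2 and only the groups compared gave 0. For the trap in mutant kidney, 1 probe set per gene and quantile normalization each gave 1. The mean of all probe sets gave 3 instead of 8 for the tissue difference in the genotype effect. The causes were not tested.

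Within a tissue, leaving out 1 mouse gave 2 to 4 for genotype in muscle under PBS (2 without mutant replicate 1) and 1 to 4 for the trap in mutant muscle (4 without mutant PBS replicate 2). It gave 0 to 1 for the trap in mutant kidney (1 without mutant PBS replicate 2). For genotype in kidney the count stayed at 7 under PBS and was 6 to 7 under the trap. In the joint fit 1 array was left out and the other tissue of that mouse was kept. The counts were then 5 to 6 for kidney against muscle (5 without kidney WT PBS replicate 1 or replicate 3), 6 to 8 for the tissue difference in the genotype effect, and 1 to 2 for that in the trap effect. For single genes, 2579 of 2673 alternatives gave the same answer, called or not, but only 42 of the 135 changes had been called. These called changes lost their call in 80 alternatives, and 0 of them reversed sign. A call was gained in 14 alternatives, and the sign of changes without a call switched in 86.

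Replicate numbers are not stated to pair mice across groups. Deviations of same-numbered arrays correlated from -0.232 to 0.294 in muscle and from -0.126 to 0.341 in kidney. With a replicate block the count for genotype in muscle under PBS was 3, Acvr2b being lost (0.52, adjusted p = 0.065), and the count for genotype in kidney under PBS was 7, with no other count changed within a tissue. Alternatives of the joint fit kept its consensus correlation.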
